A study of Drosophila melanogaster with 21 samples.

Results

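The cytosolic ribosomal protein genes of Drosophila melanogaster were taken as every gene whose name begins with RpL, RpS or RpLP followed by a number. RpLP0-like, which is named for its likeness to a stalk protein, was left out. The rule found 91 of the 17555 genes listed, and it used names only, not measured values. Of these, 69 are core genes (44 of the large subunit and 25 of the small subunit), 18 have names ending in a or b that mark paralogs, and 4 are named as like another ribosomal protein gene. They lie on chromosome arms 3R (23 genes), 2R (20), 2L (19), 3L (14) and X (14) and on chromosome 4 (1). The core genes code for 25 to 416 codons, with a median of 155.

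Ribosomal proteins assemble with ribosomal RNA in the nucleolus into the large and the small subunit, which join on an mRNA to translate it. Their genes are among the most highly transcribed in growing cells, their mRNAs carry short untranslated regions, and most begin with a run of pyrimidines through which growth signalling by Tor controls their translation. In Drosophila, loss of one copy of many of these genes slows growth and gives the Minute phenotype.

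The cells were DL1, an established Drosophila line that was grown in SDM medium, and all samples share that parental background. In the RNAi part, wild-type DL1 cells were bathed in 20 µg of double-stranded RNA for 60 min and harvested after 48 h. The RNA matched Pop2, the catalytic deadenylase subunit of CCR4-NOT (3 samples), Not1, the scaffold of that complex (3 samples), Pum, the RNA-binding repressor Pumilio (3 samples), or the bacterial gene LacZ, which served as the non-targeting control (3 samples). In the knockout part, a pair of clonal isolates in which the Pumilio gene was knocked out, called clone 1 and clone 2 here, gave 3 samples each and were set against the parental wild-type line (WT, 3 samples). Each knockout group is thus 1 clone, and a feature of that clone cannot be told apart from the knockout within it. The labels call the 21 samples biological replicates, so the p-values measure the spread between such samples. The questions were how depletion of the repressor, and of the deadenylase complex it works with, changes RNA levels.

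The tables hold a mean normalised count per group and the authors' fold changes with their errors, from poly(A)-selected RNA made into ClickSeq libraries with a gel selection for short amplicons. Reads per library were recovered from these means, and the libraries of each group are called A, B and C in falling order of size factor, the number that scales a library to the others. Depth ran from 2330484 reads in Not1 library C to 13430093 reads in clone 1 library A. Intervals and floors from such counts cover counting error only. The targeted mRNA averaged 28.7 normalised counts in Pop2 RNAi against 575.9 in LacZ RNAi for Pop2 (adjusted p = 1.6e-40), and 1748.4 in Not1 RNAi against 16829.7 in LacZ RNAi for Not1 (adjusted p = 4.05e-72), as the authors' deposited table has it. The mRNA of pum averaged 542.6 in Pum RNAi against 1754.8 in LacZ RNAi (adjusted p = 0.00575) by the authors' deposited table. For the knockouts the authors' deposited table lists pum at 1035.6 in clone 1 and 2121.9 in clone 2 against 3029.3 in WT (adjusted p = 5.78e-103 and 1.47e-12).

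The shallowest LacZ and Not1 libraries stood apart from their groups in these genes. In Not1 RNAi, library C lay above both A and B in 79 of 81 members with enough reads, with a median of 2.53-fold (0.751-fold for RpL30 to 8.22-fold for RpLP2). In LacZ RNAi, library C did so in 83 of 83 members, with a median of 2.69-fold (1.19-fold for RpS19a to 11.7-fold for RpL39). In the other 5 groups the median ratio of library C to A and B lay between 0.967 and 1.15. Over all other genes the median log2 ratio of library C to A and B, which the size factors place near 0, was −0.05 in Not1 RNAi and −0.02 in LacZ RNAi. The middle 90% of those genes ran from −1.41 to 1.37 in Not1 RNAi and from −1.60 to 1.22 in LacZ RNAi, wider than in the other groups (−0.45 to 0.41 in Pop2 RNAi). The mitochondrial ribosomal proteins had a median log2 ratio of 0.07 in Not1 RNAi and 0.70 in LacZ RNAi. The counts and medians of the RNAi comparisons are therefore given with and without these libraries, and values by the authors' deposited table rest on all libraries.

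The ribosomal protein mRNAs held a smaller share of the poly(A) RNA in every Pop2 and Not1 RNAi library than in any LacZ library. By library, members took 3.51, 3.44 and 4.08% of normalised counts in Pop2 RNAi, 3.01, 3.42 and 5.13% in Not1 RNAi, 7.67, 8.06 and 8.07% in Pum RNAi, and 7.06, 7.47 and 13.5% in LacZ RNAi, in the order A, B, C. The Pum libraries lay within the LacZ range. These shares cover 89 members, since the reads of RpL23A and RpL5 could not be recovered in Pum RNAi. Other genes whose reads were not recovered in every RNAi group were likewise left out of the total. The shares averaged 3.68 ± 0.348% in Pop2 RNAi, 3.85 ± 1.12% in Not1 RNAi, 7.93 ± 0.228% in Pum RNAi and 9.34 ± 3.60% in LacZ RNAi (SD, n = 3 each). An exact two-sided permutation test gave p = 0.1 for Pop2 and for Not1, the smallest that 3 against 3 allows, and p = 1 for Pum. Without library C the LacZ share averaged 7.27%, and the share over Not1 libraries A and B was 3.21%. A share is relative to the other mRNAs, and fewer cells of one kind and less RNA per cell cannot be told apart in such bulk samples.

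In the knockout part the share was higher in every library of both clones than in any of the parental line. Clone 1 libraries held 7.61, 7.47 and 7.09%, clone 2 libraries held 8.31, 8.31 and 8.48%, and WT libraries held 6.54, 6.29 and 6.75% of their normalised counts in these genes. Clone 2 also lay above clone 1 in every library. The knockout shares cover 91 members, RpL23A and RpL5 included, so their level cannot be set against that of the RNAi shares. The means were 7.39 ± 0.273% in clone 1, 8.36 ± 0.0987% in clone 2 and 6.52 ± 0.230% in WT (SD, n = 3 each). The exact two-sided permutation test again gave its smallest p of 0.1 for each clone against WT, or 0.125 after Benjamini-Hochberg adjustment over the 5 comparisons.

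**Figure D1:**
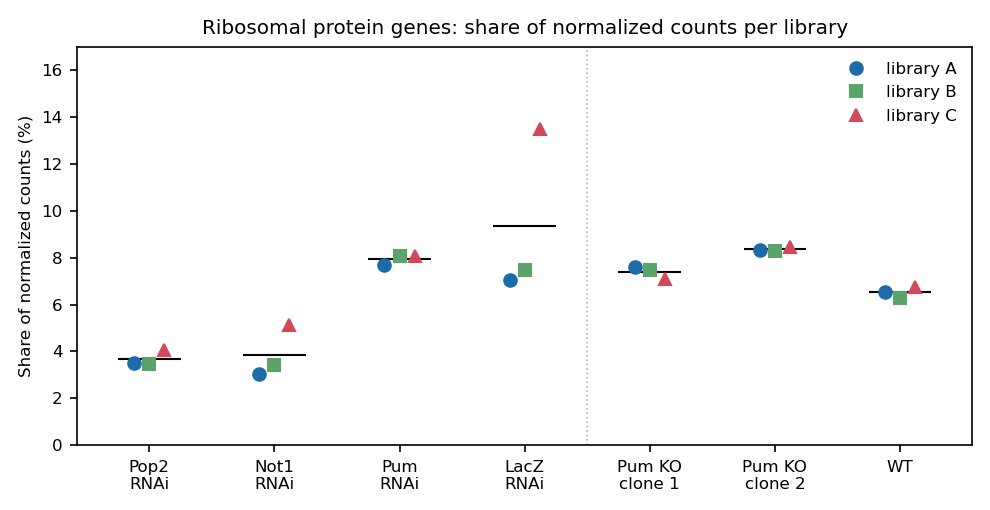
Share of normalised counts held by cytosolic ribosomal protein genes, in percent, in each library of the 7 groups, with points for single libraries A, B and C and horizontal bars for group means (n = 3). The Pop2 and Not1 libraries lie between 3.01 and 5.13%, and LacZ library C at 13.5% lies far above LacZ libraries A and B. The RNAi shares cover 89 members and the knockout shares 91.

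Pop2 RNAi lowered nearly every ribosomal protein mRNA that was tested. Of 81 members tested, 79 fell at an adjusted p below 0.05 and 0 rose by the authors' deposited table, where 20.1% of all genes fell and 18.8% rose. The median log2 fold change of the members was −1.63, a level 3.09-fold lower, while the median of all genes tested was −0.05. Core medians were −1.66 for the large and −1.63 for the small subunit on the log2 scale. RpL29 and RpL39, both small basic proteins of the large subunit, were the members tested that were not called. For RpLP0 and RpS23 the authors' deposited table of the RNAi samples gives a fold change without an adjusted p.

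RpS3A, a small subunit protein encoded on chromosome 4 (dm6, 65225 to 67207, FBgn0017545), shows the fall with little spread. Its normalised counts were 5390, 5286 and 5423 in Pop2 RNAi, 4538, 3589 and 4579 in Not1 RNAi, 11981, 12786 and 10705 in Pum RNAi, and 12023, 12150 and 15876 in LacZ RNAi (libraries A, B and C here and below). The Pop2 and Not1 libraries lay below all LacZ and Pum libraries, and the Pum and LacZ ranges overlapped. The authors' deposited table gives a log2 fold change of −1.66 ± 0.16 for Not1 RNAi (adjusted p = 8.74e-25; ± is the standard error for fold changes throughout).

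RpL21, a large subunit protein (2L, 22247111 to 22247875, FBgn0032987), fell most among the core genes in Not1 RNAi. Its normalised counts were 1704, 1614 and 1911 in Pop2 RNAi, 1116, 1272 and 2594 in Not1 RNAi, 4023, 4167 and 4727 in Pum RNAi, and 4541, 4372 and 15954 in LacZ RNAi. Every Pop2 and Not1 library lay below every LacZ library, and library C was the highest of its group in all 4 groups, by most in Not1 and LacZ RNAi. The log2 fold change by the authors' deposited table was −2.25 ± 0.46 in Pop2 RNAi (adjusted p = 9.54e-06) and −2.32 ± 0.46 in Not1 RNAi (adjusted p = 2.66e-06), the second being 5.00-fold lower. Its size depended on the libraries used. In limma repeats that each left out 1 library it ran from −2.39 to −1.35 in Pop2 RNAi. In Not1 RNAi it ran from −2.57 to −1.49, and both falls were called in 6 of 6 repeats.

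RpL23A, which lies at the nascent chain exit of the large subunit, had the highest level of any member both in counts and per kilobase of exon. Its deposited means were 30340.1 in Pop2 RNAi, 39484.8 in Not1 RNAi, 70070.7 in Pum RNAi and 84502.8 normalised counts in LacZ RNAi (3L, 1666288 to 1668654, FBgn0026372). It fell in both deadenylase knockdowns, with a log2 fold change of −1.48 in Pop2 RNAi (adjusted p = 9.43e-05) and −1.10 in Not1 RNAi (adjusted p = 0.00354) by the authors' deposited table. It could not be fitted by limma, since its reads were not recovered in Pum RNAi. Per kilobase the core genes spanned a wide range of levels in LacZ RNAi, with RpL38 lowest at 278 and RpL23A highest at 63969 normalised counts.

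The sizes of the Pop2 falls differed between members, and several of the lowest had wide errors. The lowest log2 values of the authors' deposited table were RpS19b, described with the paralogs, RpLP2 at −2.48 ± 0.95 (adjusted p = 0.0264) and RpL26 at −2.43 ± 0.83 (adjusted p = 0.0113). Toward zero lay RpL30 at −0.81 ± 0.16 (adjusted p = 5.47e-06), RpS2 at −0.96 ± 0.23 (adjusted p = 0.000134) and RpL12 at −1.07 ± 0.25, all of which fell. limma did not call RpL30 when libraries were scaled by total reads, and it called RpLP2 in 1 and RpL26 in 2 of 6 repeats that each left out 1 library. The median standard error of a member was between 0.42 and 0.43 in the RNAi comparisons.

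Not1 RNAi also lowered many members, with fewer calls. By the authors' deposited table, 47 of the 81 members fell and 0 rose, where 24.2% of all genes fell and 25.7% rose. The member median was −1.10 on the log2 scale, or 2.15-fold lower, against 0.01 for all genes tested. The core genes of the large subunit had a median of −1.10 and those of the small subunit −1.14. RpS2, on the small subunit near the mRNA entry, fell least among the called members named here, at −0.55 ± 0.23 (adjusted p = 0.0326) by the authors' deposited table, and RpS14b, at −0.70 (adjusted p = 0.241), was not called. limma called the fall of RpS2 in 2 of 6 repeats that each left out 1 library.

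**Figure D2:**
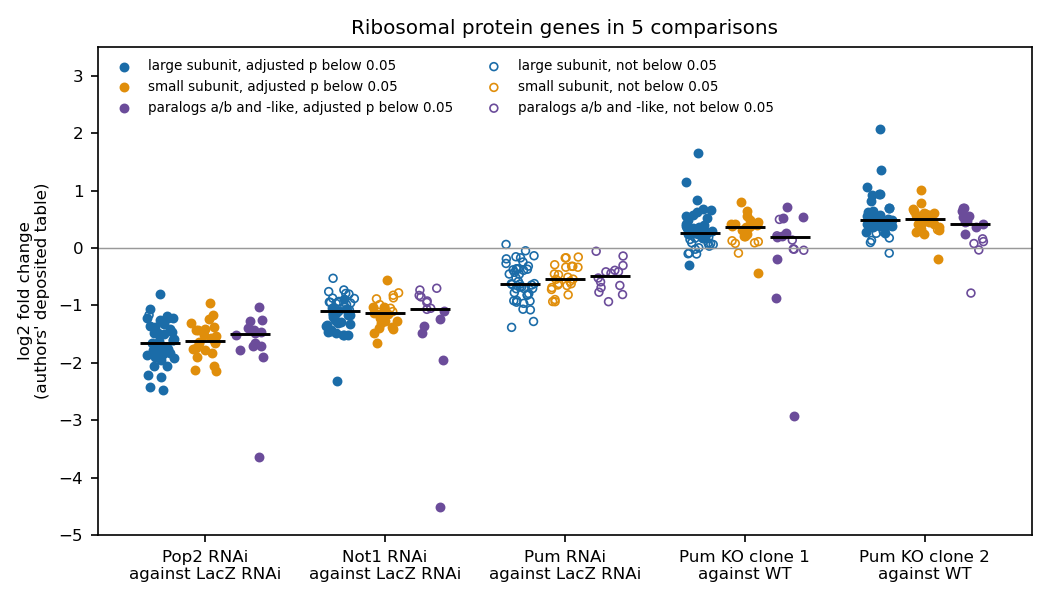
Log2 fold changes of the members from the authors' deposited tables in 5 comparisons, with large subunit core genes, small subunit core genes and paralogs with -like genes side by side, filled where the adjusted p is below 0.05, and horizontal bars at class medians. Most Pop2 and many Not1 points are filled and below 0, all Pum RNAi points are open, and most points of both clones are filled and above 0.

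Leaving out LacZ library C and Not1 library C raised the number of Not1 calls. With limma on the recovered reads of all libraries, 42 of 81 members fell in Not1 RNAi and 0 rose (27.0% of all genes fell and 28.6% rose), and 70 fell and 0 rose in Pop2 RNAi (21.6% and 21.8% of all genes). Without the pair of libraries, 74 fell and 1 rose in Not1 RNAi (35.0% and 36.0% of all genes), and 75 fell and 0 rose in Pop2 RNAi (32.2% and 32.3% of all genes). The limma median was then −1.08 in Not1 RNAi and −0.997 in Pop2 RNAi, against −1.05 and −1.48 with all libraries. Without LacZ library C alone the Not1 count was 24 lower and 1 higher with a median of −0.55. The 24 were close to the share of all genes, of which 2139 of 7203 were lower and 2223 higher. Without Not1 library C alone the Not1 count was 74 lower with a median of −1.61, where 2083 genes were lower. It was 23 lower without Not1 library A or B, where 1652 and 1678 genes were lower. The Pop2 count was 41 lower without LacZ library C, where 1766 genes were lower. It was 45 without Pop2 library A and 42 without Pop2 library B (1176 and 1189 genes lower).

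Libraries of a group and its control were also compared without a model. In Pop2 RNAi every library lay below every LacZ library for 79 of 83 members, against 27.5% of all genes. In Not1 RNAi this held for 25 of 83 members, close to the 26.5% of all genes, and for 78 of 83 once library C of both groups was left out (42.7% of all genes).

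The member that rose in Not1 RNAi without those libraries was RpL39, a protein of 51 codons that lines the exit tunnel (2R, 24061853 to 24062431, FBgn0023170). Its normalised counts were 139, 96.4 and 142 in Pop2 RNAi, 139, 151 and 301 in Not1 RNAi, 115, 79.1 and 287 in Pum RNAi, and 63.0, 61.3 and 727 in LacZ RNAi. LacZ libraries A and B were the lowest of all 12 and LacZ library C was the highest. Its Not1 log2 fold change was −0.53 ± 0.92 (adjusted p = 0.661) by the authors' deposited table, 0.50 (adjusted p = 0.592) by limma with all libraries and 1.21 (adjusted p = 0.0213) by limma without the pair, so its sign differed between fits.

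**Figure D3:**
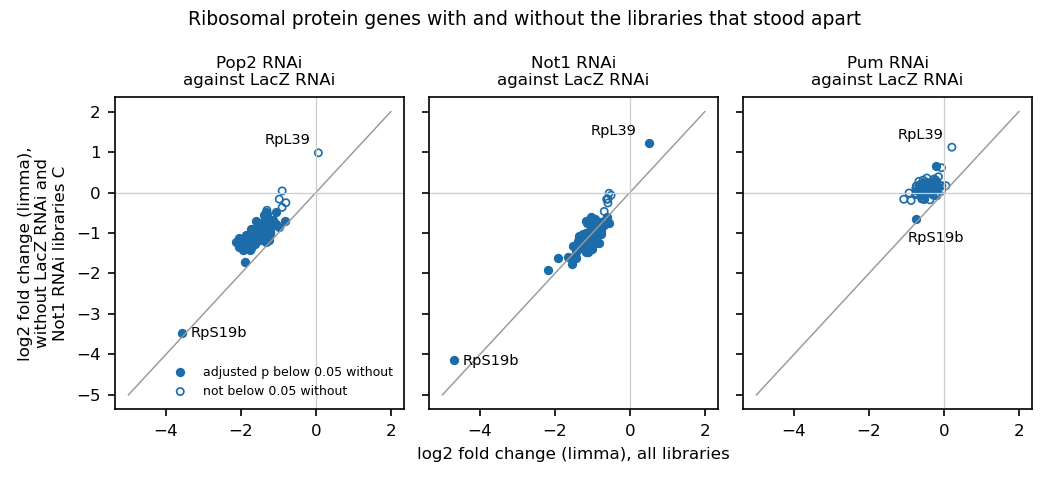
Log2 fold changes of members by limma with all libraries (horizontal axis) and without library C of LacZ and Not1 RNAi (vertical axis), with a line of equal values, filled where the adjusted p without them is below 0.05. The Pum RNAi median is 0.10 without the libraries against −0.45 with them. The Pop2 median is −0.997 against −1.48, and the Not1 median is −1.08 against −1.05. RpL39 stands above the other members in each panel.

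Not1 and Pop2 RNAi were then set against each other directly. With all libraries, limma called 0 of 81 members at an adjusted p below 0.05, where 1 had an unadjusted p below 0.05. In that fit 7.84% of all genes were called (3.14% lower and 4.71% higher). A test of the difference between the authors' fold changes also called 0. It treats fold changes that share the LacZ libraries as independent, so it had little power to call a member. The median limma difference of Not1 RNAi from Pop2 RNAi was 0.41 on the log2 scale, above 0 in 70 of 81 members. Without the pair of C libraries, 8 members were lower in Not1 RNAi than in Pop2 RNAi and 1 was higher, with a median of −0.10, while 32.2% of all genes were called (14.1% lower and 18.0% higher). The 8 were RpL10, RpL10Ab, RpL13A, RpL17, RpL21, RpL4, RpS23 and RpS3A, of which RpL21 differed by −0.54 ± 0.10 (adjusted p = 0.000406). RpS14b was the 1 higher in Not1 RNAi, by 0.66. It had 451 and 906 reads in Not1 libraries A and B, against 438, 359 and 427 in Pop2 RNAi. After scaling, Not1 library A lay within the Pop2 range, so the call rests on Not1 library B. These calls were made after the library pattern was seen.

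No member passed the threshold in Pum RNAi by the authors' deposited table, in which 0 of 81 were called in either direction and 2 had an unadjusted p below 0.05. Few genes were called in this comparison at all, with 0.221% of all genes lower and 0.512% higher. The member median was −0.58 on the log2 scale and 80 of 81 values lay below 0. The direction of that median depended on LacZ library C, since limma gave −0.45 with all libraries and 0.10 without library C of LacZ and Not1 RNAi, when 58 of 81 members lay above 0. limma called 0 members with all libraries, where 1 had an unadjusted p below 0.05 and 0.0139% of all genes were lower. All Pum libraries lay below all LacZ libraries for 4 of 81 members, against 10.9% of all genes. Without library C of LacZ and Not1 RNAi, all Pum libraries lay below for 4 and above for 23 of 81 members, against 23.5% and 21.5% of all genes.

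Without those libraries limma called 1 member lower and 1 higher in Pum RNAi, against 4.54% and 3.4% of all genes. The lower was RpS19b (−0.65 ± 0.15, adjusted p = 0.0113). The higher was RpL41, a peptide of 25 codons and the shortest product of the family (2R, 24903416 to 24903935, FBgn0066084), at 0.65 ± 0.18 (adjusted p = 0.0351). Its normalised counts were 645, 556 and 1018 in Pum RNAi and 424, 488 and 2723 in LacZ RNAi. Pum libraries A and B thus exceeded LacZ A and B, while LacZ C exceeded them all. Among members at the ends of the Pum RNAi range, RpL29 had −1.38 ± 0.90 (adjusted p = 0.67) and RpL30 had 0.06 (adjusted p = 0.938) by the authors' deposited table.

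Most ribosomal protein mRNAs rose in both Pumilio knockout clones, by small amounts. Of 84 members tested, 53 rose and 5 fell in clone 1 by the authors' deposited table, where 22.9% of all genes rose and 25.5% fell. In clone 2, 71 rose and 1 fell by the authors' deposited table, where 21.3% of all genes rose and 23.5% fell. The median log2 fold changes were 0.26 in clone 1, or 1.20-fold, and 0.47 in clone 2, or 1.38-fold, against −0.07 and −0.04 for all genes tested. With limma 56 rose and 5 fell in clone 1 (33.7% and 32.7% of all genes), and 74 rose and 2 fell in clone 2 (30.6% and 31.0% of all genes). Libraries lay all above WT for 54 members and all below for 4 in clone 1 (34.2% and 33.6% of all genes), and for 73 and 2 in clone 2 (32.7% and 33.8% of all genes). Both comparisons use the same 3 WT samples. The median standard error of a member was 0.078. Among core genes alone the medians were 0.31 in clone 1 and 0.49 in clone 2.

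Small subunit core genes had a median of 0.37 in clone 1 and 0.50 in clone 2, and large subunit core genes had 0.26 in clone 1 and 0.49 in clone 2. RpL23A, the most abundant member, had deposited means of 91158.7 in clone 1 and 99195.1 in clone 2 against 72923.0 normalised counts in WT. It rose by 0.32 in clone 1 (adjusted p = 6.41e-12) and by 0.44 in clone 2 (adjusted p = 1.28e-21) on the log2 scale by the authors' deposited table.

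The members with the widest rise coded for short proteins. RpL39 had 264, 234 and 224 normalised counts in clone 1 and 254, 308 and 405 in clone 2, against 91.4, 65.8 and 72.3 in WT. No library of either clone came near the WT values. Its log2 fold change by the authors' deposited table was 1.65 ± 0.19 in clone 1 (adjusted p = 4.03e-18, 3.14-fold) and 2.07 ± 0.18 in clone 2 (adjusted p = 8.17e-28, 4.19-fold).

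RpL29, a protein of 76 codons (2R, 21293768 to 21294404, FBgn0016726), followed with 490, 487 and 416 in clone 1 and 479, 521 and 627 in clone 2, against 197, 216 and 220 in WT. The clone and WT libraries did not overlap. The authors' deposited table gives 1.15 ± 0.13 in clone 1 (adjusted p = 6.09e-19) and 1.36 ± 0.13 in clone 2 (adjusted p = 3.81e-26). RpL41 had 910, 907 and 915 in clone 1 and 1063, 1226 and 1287 in clone 2, against 579, 438 and 702 in WT. It also rose without overlap, by 0.67 ± 0.12 in clone 1 (adjusted p = 1.46e-07) and 1.06 ± 0.12 in clone 2 (adjusted p = 3.14e-17) by the authors' deposited table. RpS21, a short protein of the small subunit, rose by 0.80 ± 0.10 in clone 1 (adjusted p = 4.31e-16) and 1.01 ± 0.10 in clone 2 (adjusted p = 8.85e-25) by the authors' deposited table.

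A few members went the other way in the clones. RpS18, a protein of the small subunit head (2R, 20263979 to 20264848, FBgn0010411), had 7586, 7243 and 7039 normalised counts in clone 1 and 8947, 8488 and 8598 in clone 2, against 10304, 9021 and 10314 in WT. All libraries of both clones lay below all WT libraries. Its log2 fold change was −0.44 ± 0.07 in clone 1 (adjusted p = 1.36e-10) and −0.19 ± 0.07 in clone 2 (adjusted p = 0.0114) by the authors' deposited table. The clone 2 call was made by limma in 2 of 6 repeats that each left out 1 library.

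RpL5, which carries 5S ribosomal RNA into the large subunit together with RpL11 (2L, 22532279 to 22536884, FBgn0064225), had 54879, 55229 and 53192 in clone 1 and 66194, 59733 and 62264 in clone 2, against 61602, 80384 and 58245 in WT. Clone 1 lay below WT, and clone 2 overlapped it. Its change by the authors' deposited table was −0.29 ± 0.09 in clone 1 (adjusted p = 0.0042) and −0.09 in clone 2 (adjusted p = 0.471), and limma called the clone 1 fall in 5 of 6 repeats that each left out 1 library. The other members that fell in clone 1 were RpS14a, RpS19b and RpS5b, given with the paralogs.

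The clones differed from each other in size. With limma, 40 of 84 members were lower in clone 1 than in clone 2 and 0 were higher, while 13.4% of all genes were lower and 12.9% higher. The median difference was −0.21 on the log2 scale, and 79 of 84 members lay below 0. The test of the difference between the authors' fold changes, which share the WT samples, called 9 members. Leaving out each clone library in turn gave 17 to 35, with 17 without clone 2 library C and 26 without clone 1 library B, and leaving out a WT library, which enters only the spread of the fit, gave 39 to 52. RpS26, at the mRNA exit of the small subunit, differed by −0.37 ± 0.08 (adjusted p = 0.000609) and RpL19, of the large subunit, by −0.34 ± 0.07 (adjusted p = 0.000838).

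Hemocyte and germline marker genes differed between these groups as well. Over 8 hemocyte genes, 5 were lower and 3 higher in clone 1 than in WT and 3 were lower and 3 higher in clone 2, by the authors' deposited table, where 25.5% of all genes were lower and 22.9% higher in clone 1 and 23.5% and 21.3% in clone 2. The summed normalised counts of 7 female germline genes ran from 289 to 299 in clone 1 libraries and from 273 to 322 in clone 2 libraries, against 359 to 406 in WT libraries, with vas averaging 2 to 6 and osk at or near 0 in every group. Those of 6 male germline genes ran from 680 to 703 in clone 1 and 725 to 797 in clone 2, against 606 to 654 in WT, with can and aly at 0. By the authors' deposited table, 1 of 4 male germline genes tested was lower and 2 were higher in each clone. Of 6 female germline genes tested, 2 were lower and 0 higher in each clone. The shares of all genes are those given for the hemocyte genes. The part of such differences in the ribosomal protein values was not tested.

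Short coding sequences went with the larger rises. By the authors' deposited table, the 10 core genes with the shortest coding sequence (25 to 111 codons) had a median log2 fold change of 0.52 in clone 1 and 0.77 in clone 2, and the 10 longest (262 to 416 codons) had 0.18 in clone 1 and 0.26 in clone 2. Across the 69 core genes, Pearson's r with log2 coding length was −0.41 (Spearman's rho −0.27) in clone 1 and −0.52 (rho −0.38) in clone 2. These points share libraries and WT controls, and genes are not independent replicates.

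A slope with length was also seen between libraries of 1 group. In LacZ RNAi, library C exceeded A and B by a median of 4.31-fold for the 10 shortest and 1.73-fold for the 10 longest core genes, with r = −0.61 over 69 genes. In Not1 RNAi the medians were 2.43-fold and 2.56-fold, with r = −0.06. The ratio of library C to A and B also sloped with length where its median was near 1, with r = −0.62 over 67 genes in Pum RNAi and −0.60 over 69 in WT, the control of both clones. In the other groups r was −0.19 in Pop2 RNAi, 0.05 in clone 1 and −0.28 in clone 2. With library C of both groups left out, r between coding length and the limma fold change over 67 core genes was −0.59 in Pop2 RNAi, −0.59 in Not1 RNAi and −0.70 in Pum RNAi, comparisons that share the LacZ libraries. With the fold changes of the authors' deposited table, which use all libraries, r over 69 core genes was 0.06 in Pop2 RNAi, −0.15 in Not1 RNAi and 0.30 in Pum RNAi. The part in these values of the gel step that selects amplicons by size was not tested.

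**Figure D4:**
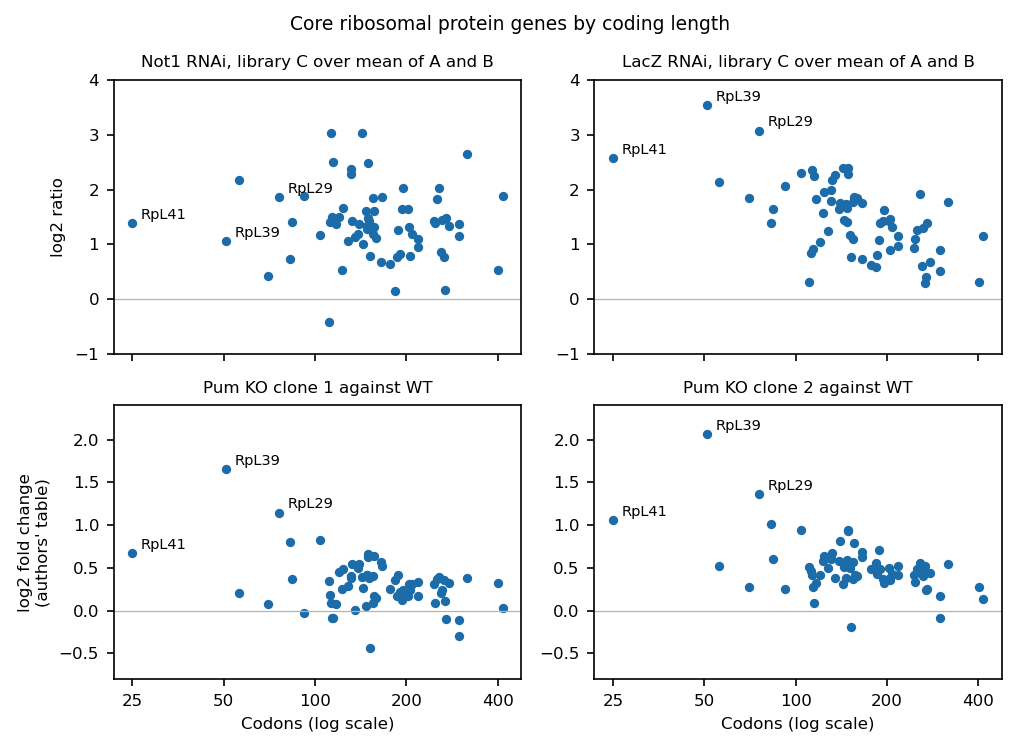
Log2 values of core genes against codons on a log axis, as the ratio of library C to the mean of A and B in Not1 RNAi and in LacZ RNAi (upper panels) and as the authors' fold change of each clone against WT (lower panels). Values decline with length in LacZ RNAi (r = −0.61), clone 1 (r = −0.41) and clone 2 (r = −0.52), and show little slope in Not1 RNAi (r = −0.06).

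The stalk proteins RpLP0, RpLP1 and RpLP2 form the arm of the large subunit that recruits elongation factors, with RpLP0 as its base. RpLP0 (3L, 22075867 to 22077487, FBgn0000100) had 785, 923 and 1025 normalised counts in Pop2 RNAi, 850, 902 and 5481 in Not1 RNAi, 1737, 1889 and 2169 in Pum RNAi, and 2220, 2192 and 7562 in LacZ RNAi. Library C was several times the others in Not1 and LacZ RNAi, and the Not1 and LacZ ranges overlapped, while all Pop2 and Pum libraries lay below LacZ. The authors' deposited table lists −2.13 ± 0.64 for Pop2 RNAi with no adjusted p. In the knockouts RpLP0 had 3564, 3481 and 3304 in clone 1 and 3556, 3640 and 4383 in clone 2, against 2655, 2630 and 2633 in WT. It rose by 0.39 ± 0.08 in clone 1 (adjusted p = 3.4e-06) and by 0.55 ± 0.08 in clone 2 (adjusted p = 2.66e-11) by the authors' deposited table.

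RpLP2 had 1328, 1371 and 1759 in Pop2 RNAi, 1106, 1385 and 10242 in Not1 RNAi, 3398, 3337 and 5039 in Pum RNAi, and 4026, 2947 and 17887 in LacZ RNAi. Not1 library C lay above 2 of the 3 LacZ libraries, and Not1 libraries A and B lay below all of them. The Not1 change was −0.97 by the authors' deposited table (adjusted p = 0.411). RpLP1, the partner of RpLP2, fell in both knockdowns, with −1.82 ± 0.42 in Pop2 RNAi (adjusted p = 9.51e-05) and −1.07 ± 0.42 in Not1 RNAi (adjusted p = 0.0237) by the authors' deposited table. limma called the Not1 fall of RpLP1 in 2 of 6 repeats that each left out 1 library. In clone 2 both rose by the authors' deposited table of the knockouts, RpLP1 by 0.46 ± 0.10 (adjusted p = 2.84e-05) and RpLP2 by 0.42 ± 0.11 (adjusted p = 0.000351). In clone 1 the authors' deposited table has RpLP1 at 0.19 (adjusted p = 0.121) and RpLP2 at 0.08 (adjusted p = 0.557).

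The paralogs fell into abundant, scarce and silent genes. RpL10Aa and RpS28a had 0 reads in all 21 libraries and RpL37b and RpS10a had 1 read in all, so a floor of 3 reads per library bounds the genes at 0. Their partners were abundant, with 139581 reads in all libraries for RpS28b and 136023 for RpS10b. Among the genes named as like another, RpL7-like and RpL22-like had 0 reads, RpS28-like had 1, and RpL24-like, a ribosome assembly factor rather than a ribosomal protein, had 12598. Of 13 paralogs tested, 13 fell in Pop2 RNAi and 6 fell in Not1 RNAi, with medians of −1.52 and −1.07, by the authors' deposited table, where 20.1% of all genes fell in Pop2 RNAi and 24.2% in Not1 RNAi. Without library C of LacZ and Not1 RNAi, limma called 13 of 13 lower in Pop2 RNAi and 12 in Not1 RNAi, with medians of −0.87 and −1.15, against 32.2% and 35.0% of all genes. Of 14 tested in the knockouts, 5 rose and 3 fell in clone 1 (22.9% and 25.5% of all genes) and 9 rose and 0 fell in clone 2 (21.3% and 23.5% of all genes), with medians of 0.17 and 0.40, by the authors' deposited table.

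RpS19b, whose protein is enriched in the fly germline, was scarce and had the lowest fold change of all members in the deadenylase knockdowns (3R, 23932729 to 23933530, FBgn0039129). It had 11.1, 9.11 and 11.4 normalised counts in Pop2 RNAi, 6.06, 6.63 and 0 in Not1 RNAi, 67.9, 85.9 and 75.3 in Pum RNAi, and 120, 117 and 158 in LacZ RNAi. Pop2, Not1 and Pum libraries all lay below every LacZ library. The 0 in Not1 library C allows up to 12.4 normalised counts, from a floor of 3 reads per library. Its log2 fold change by the authors' deposited table was −3.63 ± 0.32 in Pop2 RNAi (adjusted p = 6.99e-28, 12.4-fold lower) and −4.51 ± 0.43 in Not1 RNAi (adjusted p = 6.56e-24). The Not1 to Pop2 difference by limma was −1.12 ± 0.45 (adjusted p = 0.144).

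The change of RpS19b in Pum RNAi was −0.77 ± 0.24 (adjusted p = 0.0939) by the authors' deposited table. In the knockouts it had 14.7, 16.0 and 23.4 in clone 1 and 18.6, 16.6 and 21.4 in clone 2, against 34.4, 26.3 and 36.9 in WT, with no overlap. It fell in clone 1 by 0.87 ± 0.36 (adjusted p = 0.0333), and its clone 2 value was −0.79 ± 0.37 (adjusted p = 0.0691), by the authors' deposited table. limma gave −0.76 for clone 2 (adjusted p = 0.0154). The summed female germline genes were 221 to 269 normalised counts in LacZ RNAi. They were 163 to 182 in Pop2 RNAi, 128 to 171 in Not1 RNAi and 193 to 229 in Pum RNAi. Single genes of that list went both ways by the authors' deposited table. Of 6 tested, 1 fell and 2 rose in Pop2 RNAi (20.1% and 18.8% of all genes). In Not1 RNAi 1 fell and 3 rose (24.2% and 25.7% of all genes). The part of these genes in the RpS19b values was not tested.

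Its partner RpS19a, the widely used copy (X, 16637894 to 16639249, FBgn0010412), had 370244 reads in all libraries against 901 for RpS19b. Its normalised counts were 8337, 7769 and 8605 in Pop2 RNAi, 7309, 7488 and 6251 in Not1 RNAi, 19041, 19764 and 17739 in Pum RNAi, and 18340, 18557 and 21961 in LacZ RNAi. Pop2 and Not1 libraries lay well below LacZ, and Pum libraries overlapped LacZ. Its log2 fold change was −1.25 ± 0.12 in Pop2 RNAi (adjusted p = 6.97e-24) and −1.48 ± 0.12 in Not1 RNAi (adjusted p = 2.16e-33) by the authors' deposited table. The difference between the copies was not tested. In the knockouts the authors' deposited table has −0.04 in clone 1 (adjusted p = 0.669) and a rise of 0.24 ± 0.07 in clone 2 (adjusted p = 0.0013).

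RpS5b, a second paralog enriched in the ovary (3R, 14900432 to 14901563, FBgn0038277), separated the clones. It had 2.67, 6.08 and 1.07 normalised counts in clone 1 and 34.4, 26.3 and 23.6 in clone 2, against 30.1, 16.4 and 32.5 in WT. These rest on 4, 8 and 1 reads in clone 1, 37, 27 and 21 in clone 2, and 28, 15 and 22 in WT. Clone 1 lay below all other libraries and clone 2 overlapped WT. Per the authors' deposited table the clone 1 change was −2.93 ± 0.55 (adjusted p = 4.53e-07, 7.62-fold lower) and the clone 2 change 0.11 ± 0.40 (adjusted p = 0.856). The direct limma difference of clone 1 from clone 2 was −3.12 ± 0.45 (adjusted p = 4.51e-06).

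Its partner RpS5a (X, 17143588 to 17148264, FBgn0002590) had 9225, 9397 and 10024 in clone 1 and 11962, 11134 and 11026 in clone 2, against 8551, 7713 and 8716 in WT. It rose in both clones, by 0.20 ± 0.07 in clone 1 (adjusted p = 0.00645) and 0.45 ± 0.07 in clone 2 (adjusted p = 5.19e-11) by the authors' deposited table, with no overlap between clones and WT. limma called the clone 1 rise in 4 of 6 repeats that each left out 1 library. The RNAi libraries held 0 to 3 reads of RpS5b each, too few to compare.

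**Figure D5:**
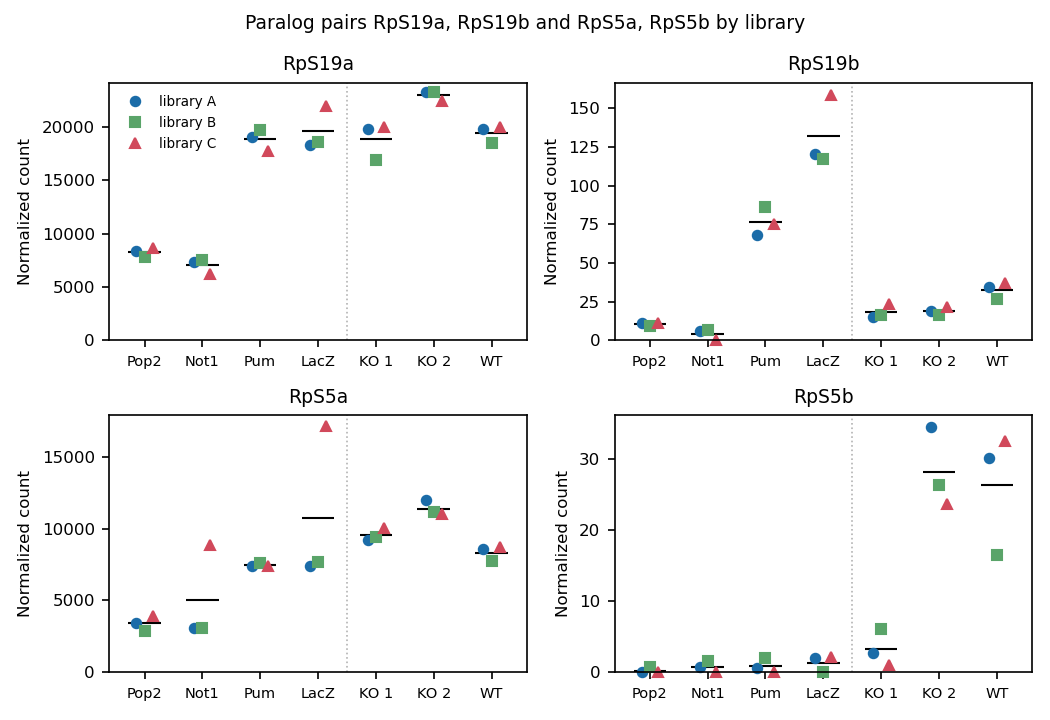
Normalised counts per library of RpS19a, RpS19b, RpS5a and RpS5b in the 7 groups, each panel on its own linear axis, with points for libraries A, B and C and horizontal bars for group means. RpS19b lies between 0 and 11.4 in Pop2 and Not1 RNAi against 117 to 158 in LacZ RNAi, and RpS5b lies between 1.07 and 6.08 in clone 1 against 16.4 to 32.5 in WT.

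The other expressed paralogs also fell in Pop2 RNAi. RpL34a had −1.90 in Pop2 RNAi and −1.95 ± 0.38 in Not1 RNAi (adjusted p = 1.15e-06), and RpL34b had −1.77 in Pop2 RNAi (adjusted p = 0.00499), by the authors' deposited table. In clone 1 RpL34a rose by 0.71 ± 0.09 (adjusted p = 5.01e-13) and RpL34b by 0.54 (adjusted p = 3.97e-15), by the authors' deposited table. RpL37a, the expressed copy of its pair, had −1.27 in Pop2 RNAi (adjusted p = 4.81e-12) and −1.36 ± 0.17 in Not1 RNAi (adjusted p = 7.17e-14) by the authors' deposited table. RpS10b had −1.71 in Pop2 RNAi (adjusted p = 8.12e-05) and RpS28b had −1.47 (adjusted p = 0.00255), and in clone 2 they rose by 0.43 (adjusted p = 0.000159) and 0.48 (adjusted p = 6.18e-08), by the authors' deposited table. In repeats that each left out 1 library, limma called the Pop2 fall of RpL34b in 2 of 6 and that of RpS28b in 3 of 6.

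Of the RpS15A pair, RpS15Aa had −1.52 (adjusted p = 0.0051) and RpS15Ab −1.49 ± 0.49 (adjusted p = 0.00876) in Pop2 RNAi by the authors' deposited table, and RpS15Ab had only 927 reads in all libraries. limma called each of these falls in 2 of 6 repeats that each left out 1 library. RpS14a and RpS14b lie 220 bases apart on the X chromosome and code for the same protein. In clone 1 RpS14a changed by −0.19 ± 0.08 (adjusted p = 0.0398), and in clone 2 RpS14b rose by 0.54 ± 0.20 (adjusted p = 0.015), by the authors' deposited table. limma called the RpS14a value in 2 of 6 repeats that each left out 1 library. Near-identical copies can share reads, so values within such pairs are uncertain. RpL24-like fell in Pop2 RNAi by 1.03 (adjusted p = 0.0364) and rose by 0.52 in clone 1 (adjusted p = 6.81e-07) and 0.56 in clone 2 (adjusted p = 1.14e-07) by the authors' deposited table, but limma did not call its Pop2 value.

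Medians had the same sign for core genes with and without an overlapping gene. Of the 69 core genes, 17 overlap another protein-coding gene and 26 hold a small nucleolar or nuclear RNA gene within their bounds. By the authors' deposited table, the median log2 fold change was −1.59 for the 17 overlapping and −1.66 for the other 52 in Pop2 RNAi, and 0.45 and 0.25 in clone 1. The sources used here do not state the strand setting of the counting, and reads of overlapping genes may be shared.

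Genes that work beside the ribosome were examined as lists. Of 7 translation elongation factors, 6 fell in Pop2 RNAi, 5 fell in Not1 RNAi and 0 were called in Pum RNAi, and 4 rose and 2 fell in clone 1 and 6 rose and 1 fell in clone 2, by the authors' deposited table. The shares of all genes in that table were 20.1% lower and 18.8% higher in Pop2 RNAi, 24.2% and 25.7% in Not1 RNAi, 0.221% and 0.512% in Pum RNAi, 25.5% and 22.9% in clone 1, and 23.5% and 21.3% in clone 2, here and for the lists that follow. Of 4 ribosome partners (Rack1, Nacalpha, bic and RpLP0-like), 3 fell in Pop2 RNAi and 4 in Not1 RNAi, and 4 rose in each clone, with RpLP0-like at 1.70 in clone 1 and 1.20 in clone 2 on the log2 scale, by the authors' deposited table. Without library C of LacZ and Not1 RNAi, limma called 4 of 4 elongation factors fitted lower in both deadenylase knockdowns, and 3 of the 4 partners lower in Pop2 RNAi and 4 in Not1 RNAi (32.2% and 35.0% of all genes lower). The partner not called in that Pop2 fit was RpLP0-like, at −0.24 (adjusted p = 0.15).

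Regulators of ribosomal protein synthesis went in both directions. Of 9 tested, 3 rose and 0 fell in Pop2 RNAi and 5 rose and 1 fell in Not1 RNAi, while of 10 tested 2 rose and 5 fell in clone 1 and 0 rose and 4 fell in clone 2, by the authors' deposited table. Without library C of LacZ and Not1 RNAi, limma called 6 of 10 higher and 2 lower in Pop2 RNAi (32.3% and 32.2% of all genes). It called 6 higher and 3 lower in Not1 RNAi (36.0% and 35.0%), and 0 higher and 3 lower in Pum RNAi (3.4% and 4.54%). In those fits Myc and larp were lower in both deadenylase knockdowns, and Dref was lower in Not1 RNAi. Myc had −0.55 in Pop2 RNAi (adjusted p = 0.000178) and −1.37 in Not1 RNAi (adjusted p = 3.4e-09) by limma. Tor, the growth kinase, rose by 0.89 in Pop2 RNAi and 1.62 in Not1 RNAi by the authors' deposited table. Thor, the translation repressor that Tor inactivates, rose by 1.51 in Pop2 RNAi and 1.15 in Not1 RNAi, and had −1.07 in clone 1 and −0.46 in clone 2, by the authors' deposited table. Xrp1, the transcription factor through which flies respond to ribosomal protein loss, had −1.14 ± 0.15 in Pop2 RNAi (adjusted p = 6.64e-13) and −1.36 ± 0.15 in Not1 RNAi (adjusted p = 1.8e-18) by the authors' deposited table.

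The mitochondrial ribosomal proteins, which build a separate ribosome from nuclear genes, were tested as the most like family. Of 72, 18 fell and 0 rose in Pop2 RNAi, and 25 fell and 1 rose in Not1 RNAi, with medians of −0.48 and −0.44, by the authors' deposited table. Without library C of LacZ and Not1 RNAi, limma called 19 of 68 lower and 5 higher in Pop2 RNAi, with a median of −0.16. In Not1 RNAi it called 22 lower and 8 higher, with a median of −0.10. Lower calls made up 27.9% in Pop2 RNAi and 32.4% in Not1 RNAi, against 32.2% and 35.0% of all genes. Higher calls made up 7.35% and 11.8%, against 32.3% and 36.0% of all genes. In the knockouts 35 of 72 rose and 1 fell in clone 1, and 34 rose and 1 fell in clone 2, with medians of 0.50 and 0.48, by the authors' deposited table. The difference between the mitochondrial and cytosolic families was not tested.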

How the data were processed

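Poly(A)-selected RNA of 21 samples in 7 groups of 3 was made into ClickSeq libraries, per the labels' protocols. The submitters' processing notes name fastp 0.14.1, HISAT2 2.1.0, UMI-tools 1.0.1, featureCounts, DESeq2 1.23.110 and build dm6, without settings. The authors deposited, for each gene, mean normalised counts per group (a signal scaled by library size factors), log2 fold changes with standard errors, and p-values with adjusted p-values. These differences and calls (adjusted p below 0.05) are the authors' values.

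Because the deposited signal holds group means only, size factors and whole reads per library were solved from them. The solution was checked against the deposited fold changes (median misfit 2.54e-07 and 2.74e-08 on the log2 scale for RNAi and knockouts). Between 1 and 83 genes per group stayed unresolved. limma 3.58.1 (voom, R 4.3.3, the solved size factors, Benjamini-Hochberg adjustment over all genes) was run on these reads. Genes needed a mean normalised count of at least 10 over all libraries of the RNAi or the knockout part. limma was also tested on simulated data, in which no library stood apart, unlike in the RNAi part. It serves for comparisons absent from the deposited tables and for leaving out libraries. The libraries cannot be tied to replicate numbers. Lines naming no gene (7 per table, 0.0448% and 0.0669% of counts) were left out. Coordinates come from the tables and equal those in Ensembl 115 for 91 of 91 members. Named were all paralogs with reads, the stalk genes, the 4 lowest and highest fold changes and members called where 10 or fewer were, mostly summarised. Alternatives were other thresholds, filters and scalings, and single libraries left out. Leaving out the pair of C libraries was chosen after the data were seen. The members and lists were chosen with earlier results of these data known.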

Additional observations from a re-analysis of the deposited data

Results flagged for a closer look

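The effect of the knockout on ribosomal protein genes differed between the clones in a direct test, in which limma called 40 of 84 members, all lower in clone 1 than in clone 2, where 13.4% of all genes were lower and 12.9% higher. The test of the difference between the authors' fold changes called 9, and leaving out a library gave 17 to 35 for clone libraries and 39 to 52 for WT libraries. RpS5b differed most, at −3.12 on the log2 scale, on 1 to 8 reads per clone 1 library. RpS26 differed by −0.37 and RpL19 by −0.34, among the core genes. Each clone is 1 isolate, so a difference between them cannot be told apart from other differences between the isolates.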

How the results depend on the processing

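Of 242 recomputed values of 31 main results, 199 stayed within their limits and 43 moved. A count stayed if it was within 1.5-fold, and a median or share if it shifted by less than the SD between libraries. For medians that SD was 0.939 on the log2 scale in the RNAi comparisons, which held the outlying C libraries. It was 0.0764 in clone 1 and 0.106 in clone 2. A Pum RNAi median that turned from −0.58 to 0.10 therefore counted as stayed, and the RNAi medians were hardly put to a test by this limit. Without LacZ and Not1 library C, limma called 74 lower and 1 higher in Not1 RNAi, where RpL39 turned to 1.21, 1 lower and 1 higher in Pum RNAi, and 9 between Not1 and Pop2 RNAi. In clone 1 the number lower was 2 without paralogs, 3 at a mean of at least 50, 3 at an adjusted p below 0.01 and 2 at 1.5-fold, and 9 rose at 1.5-fold. In clone 2 the number lower was 0 at 0.01 or 1.5-fold and 2 by limma with either scaling, and 21 rose at 1.5-fold. Between the clones, 17 were called at 0.01 and 9 by the test of differences. The counts at these other thresholds are given without a share of all genes, so they cannot be set against one. From the deposited means of all 91 members the shares were 4.24% in Pop2, 4.36% in Not1, 9.05% in Pum and 10.2% in LacZ RNAi, 7.26% in clone 1, 8.24% in clone 2 and 6.47% in WT. Without the 100 most abundant other genes they were 5.72% in Pop2, 6.52% in Not1, 12.1% in Pum and 15.0% in LacZ RNAi, 9.78% in clone 1, 11.1% in clone 2 and 8.65% in WT. For core genes alone they were 3.80% in Pop2 and 8.11% in Pum RNAi, 6.57% in clone 1, 7.42% in clone 2 and 5.81% in WT. The cause of these shifts was not tested.

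Leaving out single libraries gave 41 to 75 lower in Pop2 RNAi (median −1.74 to −0.99), 23 to 74 lower and 0 to 1 higher in Not1 RNAi (−1.61 to −0.55), and 0 to 0 in Pum RNAi (−0.71 to 0.10). It gave 4 to 7 lower and 52 to 57 higher in clone 1 (0.25 to 0.29), 0 to 2 lower and 70 to 75 higher in clone 2 (0.44 to 0.49), 0 to 0 between Not1 and Pop2 RNAi and 17 to 35 between the clones (39 to 52 without a WT library). In the same fits 1176 to 1766 of 7203 genes were lower in Pop2 RNAi and 1652 to 2139 in Not1 RNAi. Of 7541 genes, 2320 to 2482 were higher in clone 1 and 2112 to 2208 in clone 2. Mean shares over libraries were 3.48 to 3.79% in Pop2, 3.21 to 4.27% in Not1, 7.86 to 8.06% in Pum and 7.27 to 10.5% in LacZ RNAi, 7.28 to 7.54% in clone 1, 8.31 to 8.39% in clone 2 and 6.41 to 6.64% in WT. Of 296 recomputed values for named members, 273 kept their call, 4 lost it, 18 gained it and 1 reversed. No paired analysis was possible because the recovered libraries carry no replicate numbers. TMM scaling was not run.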
